A study of Mus musculus with 26 samples.

Results

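Interleukin-15 (Il15), the chains of its receptor (Il15ra, Il2rb and Il2rg), genes of cytotoxic lymphocytes (Gzma, Ncr1 and Nkg7) and markers of T cells (Cd4 and Cd3e) were followed in the left ventricle of normotensive and hypertensive mice. The 9 genes were selected by name from a table of 40413 genes, with strain differences in these libraries already known. The strain values of the 9 genes are therefore given as a description, without a test. All 9 passed the filter on low counts that left 15543 genes to be tested. That filter asks for about 0.287 CPM (counts scaled to library size) in as many libraries as the smallest group has. Gzma reached that level in 13 of 13 BPH/2J libraries and 1 of 12 BPN/3J libraries, and Ncr1 in 7 and 0, so both passed through the BPH/2J groups, where they are high. Nkg7 reached it in few libraries: 3 of BPH/2J vehicle, 1 of BPH/2J Cmpd17b, 1 of BPN/3J Cmpd17b and 0 of BPN/3J vehicle.

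Adult BPN/3J mice, with normal blood pressure, and BPH/2J mice, with high blood pressure, received vehicle or the formylpeptide receptor agonist Cmpd17b once daily for 28 days, the latter intraperitoneally at 50 mg/kg/day. The 26 polyadenylated RNA libraries came from 7 BPN/3J mice given vehicle, 5 BPN/3J mice given Cmpd17b, 7 BPH/2J mice given vehicle and 7 BPH/2J mice given Cmpd17b. Each title carries its own animal identifier, and the labels used here give no sex and no exact age. BPN/3J and BPH/2J are separate inbred strains that differ at many loci besides those that set blood pressure, so blood pressure and the rest of the genetic background cannot be told apart.

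Total counts ran from 25476100 to 48648200 per library in the 25 libraries used. The library labelled BPH/2J Cmpd17b replicate 7 was left out. It held 16.3 CPM of Myh6, the myosin of adult mouse cardiomyocytes, against 13570 to 22900 in the others, and 24940 CPM of the kidney gene Kap against 0.58 to 122. The labels give batch 1 to 20 libraries and batch 2 to 6, and BPN/3J Cmpd17b has batch 1 alone. Differences were fitted with the quasi-likelihood test of edgeR with a batch term, and a call means a Benjamini-Hochberg adjusted p under 0.05, where the adjustment ran over every gene tested. Levels are CPM scaled by the trimmed mean of M-values, as mean ± SD over mice. The CPM given for Myh6, Kap, Alb and Myl7, and the filter's level, were scaled to the plain library total instead.

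IL-15 is a cytokine of the common gamma chain family. It is held on the surface of the cell that makes it by the alpha chain IL-15Rα and presented in trans to a neighbouring lymphocyte that carries the beta chain (Il2rb) and the common gamma chain (Il2rg). These signal through JAK1, JAK3 and STAT5, and natural killer (NK) cells and memory CD8 T cells depend on the cytokine for survival. Cardiac and skeletal muscle are known as sources of Il15 mRNA. In bulk tissue, fewer cells of a type and less RNA per cell cannot be told apart.

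RefSeq promoter windows (build GRCm38.p6, 250 bases before to 50 after the start) were found for 6 of the 9 genes, and not for Il15, Il2rb and Cd4. Those of the 3 cytotoxic lymphocyte genes are shown because Gzma and Ncr1 were both higher in BPH/2J, while Nkg7 has no such pattern. Capitals mark matches, on either strand, to the letters TGTGGT (RUNX, printed as ACCACA where the match is on the other strand), GGTGTG (T-box) and TTCNNNGAA (GAS, the element bound by STAT factors). The Gzma window is chr13:113100932-113101231 on the minus strand, that of Ncr1 is chr7:4337465-4337764 on the plus strand, and that of Nkg7 is chr7:43436888-43437187 on the plus strand.
Gzma: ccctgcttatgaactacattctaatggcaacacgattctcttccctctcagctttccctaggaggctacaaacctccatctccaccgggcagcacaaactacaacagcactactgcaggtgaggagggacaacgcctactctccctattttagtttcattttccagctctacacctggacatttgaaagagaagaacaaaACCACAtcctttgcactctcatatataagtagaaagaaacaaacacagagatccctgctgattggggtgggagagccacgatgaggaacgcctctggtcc
Ncr1: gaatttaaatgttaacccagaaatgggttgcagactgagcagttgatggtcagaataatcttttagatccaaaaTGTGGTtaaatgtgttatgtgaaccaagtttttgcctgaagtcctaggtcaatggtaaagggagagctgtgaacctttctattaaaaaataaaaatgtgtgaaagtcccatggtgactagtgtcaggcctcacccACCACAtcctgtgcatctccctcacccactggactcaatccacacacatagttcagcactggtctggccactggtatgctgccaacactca
Nkg7: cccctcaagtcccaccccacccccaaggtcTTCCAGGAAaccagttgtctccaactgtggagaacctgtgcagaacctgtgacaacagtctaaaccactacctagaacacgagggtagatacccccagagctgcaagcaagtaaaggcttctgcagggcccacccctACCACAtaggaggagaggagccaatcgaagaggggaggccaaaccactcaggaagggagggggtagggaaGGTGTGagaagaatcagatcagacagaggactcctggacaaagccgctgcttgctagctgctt
All 3 windows held the RUNX letters, once in Gzma and Nkg7 and at a pair of places in Ncr1, against 16.8% of 32851 promoter windows. The RUNX letters also occur once in the window of Il2rg, and not in those of Il15ra and Cd3e. The T-box letters, in 19% of all windows, were found once in each of Nkg7, Il2rg and 1 of the 2 Il15ra windows. The GAS letters, in 8.3% of all windows, were found in the Nkg7 window alone of these 6 genes. The 3 motifs do not overlap one another in the printed windows. A match describes letters, not a site in use.

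Il15, the ligand (chromosome 8), was the member with the widest gap between strains. In BPN/3J mice given vehicle its level was 29.7 ± 6.0 CPM (n = 7), with a lowest value of 17.1, a median of 30.4 and a highest of 35.1. BPN/3J mice given Cmpd17b had 31.3, 32.1, 36.4, 38.5 and 35.8 CPM. BPH/2J mice had 2.17 ± 0.36 CPM with vehicle (1.72 to 2.63, median 2.32, n = 7) and 1.83 ± 0.43 CPM with Cmpd17b (1.19 to 2.43, median 1.73, n = 6). Every BPN/3J library lay above every BPH/2J library, and the lowest BPN/3J value was still several times the highest BPH/2J value.

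The fitted Il15 level was 13.6-fold lower in BPH/2J under vehicle (log2 difference -3.76 ± 0.15 SE) and 19-fold lower under Cmpd17b (-4.25 ± 0.17). Within batch 1 the vehicle difference was -3.70 and within batch 2 it was -3.92. The low value of 17.1 CPM belongs to BPN/3J vehicle replicate 7, and without that library the difference was -3.87. BPH/2J libraries still held 41 to 116 Il15 reads each, so the transcript was low but detected in all of them.

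**Figure D1:**
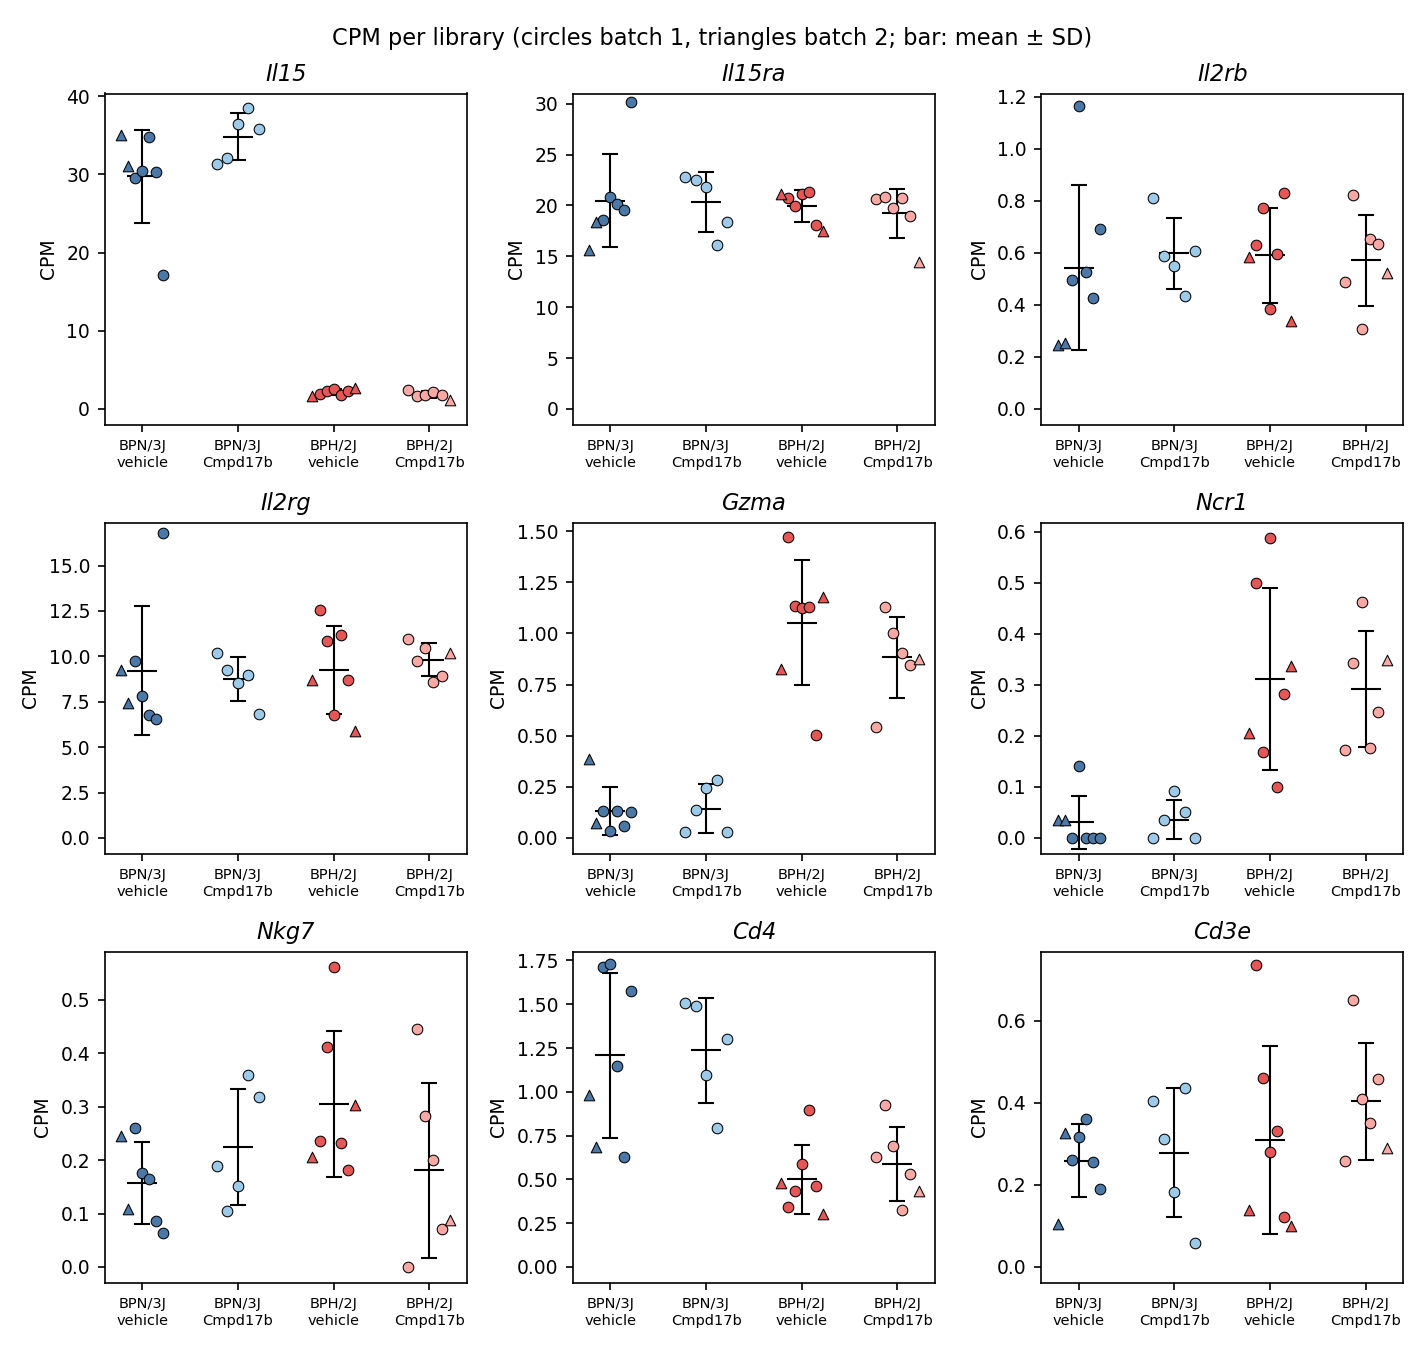
Level of each of the 9 genes in CPM (y axis, linear, each gene on its own scale) in the 4 groups (x axis). Each point is a library, circles for batch 1 and triangles for batch 2, and the bar gives the mean and SD. Il15 lies at 17.1 to 38.5 CPM in BPN/3J and at 1.19 to 2.63 CPM in BPH/2J, Gzma and Ncr1 are higher in BPH/2J, and the 3 receptor genes overlap across all groups.

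The receptor genes lay at like levels in both strains. Il15ra, which holds and presents the cytokine, was at 20.5 ± 4.6 CPM in BPN/3J vehicle (15.6 to 30.2, median 19.5) and 20.0 ± 1.6 in BPH/2J vehicle (17.5 to 21.3, median 20.8). With Cmpd17b its values were 22.8, 22.5, 21.8, 16.1 and 18.4 CPM in BPN/3J and 14.4 to 20.8 (median 20.1) in BPH/2J. The groups overlapped, and the log2 strain difference was -0.03 (95% interval -0.23 to 0.18) under vehicle and -0.04 (-0.27 to 0.19) under Cmpd17b. Those intervals are narrow beside the Il15 difference.

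Il2rg, the common gamma chain that IL-15 shares with the receptors for IL-2, IL-4, IL-7, IL-9 and IL-21, was at 9.21 ± 3.56 CPM in BPN/3J vehicle (6.57 to 16.8, median 7.8) and 9.23 ± 2.42 in BPH/2J vehicle (5.89 to 12.5, median 8.71). BPN/3J mice given Cmpd17b had 10.2, 9.26, 8.52, 8.97 and 6.84 CPM, and BPH/2J mice 8.61 to 11 (median 9.94). These groups overlapped too. The log2 strain difference was 0.00 (-0.35 to 0.35) under vehicle, and 0.21 without BPN/3J vehicle replicate 7, the library with 16.8 CPM.

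Il2rb, the signalling chain shared by the IL-2 and IL-15 receptors, was near the lower end of what was measured, with 0.543 ± 0.316 CPM in BPN/3J vehicle (0.245 to 1.16, median 0.494) and 0.590 ± 0.182 in BPH/2J vehicle (0.337 to 0.828, median 0.597). With Cmpd17b it was at 0.809, 0.589, 0.548, 0.436 and 0.606 CPM in BPN/3J and 0.307 to 0.822 (median 0.579) in BPH/2J. The groups overlapped, and the log2 strain difference of 0.17 had an interval of -0.41 to 0.75. Batch 2 alone, with 2 libraries in each vehicle group, gave 0.88 and batch 1 alone -0.02.

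Per kilobase of merged exons, Il15 was the most abundant of the axis in BPN/3J vehicle, at 13.1 CPM per kb, followed by Il15ra at 4.61, Il2rg at 3.86 and Il2rb at 0.127. In BPH/2J vehicle the order differed, with Il15ra at 4.50, Il2rg at 3.87, Il15 at 0.960 and Il2rb at 0.138 CPM per kb. The ligand thus moved from above to below 2 of its receptor genes on this scale, while the receptor genes kept their order. These are levels per length from a common exon model and not counts of protein.

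Gzma encodes granzyme A, a serine protease of cytotoxic granules, and lies on chromosome 13. It was at 0.134 ± 0.117 CPM in BPN/3J vehicle (0.0353 to 0.385, median 0.126) and 1.05 ± 0.30 in BPH/2J vehicle (0.505 to 1.47, median 1.13). With Cmpd17b it was at 0.0270, 0.139, 0.244, 0.282 and 0.0289 CPM in BPN/3J and at 0.543 to 1.13 (median 0.888) in BPH/2J. No BPN/3J library reached the lowest BPH/2J library of its treatment. The counts behind this are small, 1 to 11 reads per library in BPN/3J and 19 to 56 in BPH/2J. The log2 strain difference was 2.98 ± 0.41 (7.87-fold) under vehicle and 2.54 ± 0.47 (5.81-fold) under Cmpd17b, and under vehicle it was 3.41 in batch 1 and 2.11 in batch 2.

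Ncr1 encodes NKp46, an activating receptor carried by NK cells and some innate lymphoid cells. It had no read in 4 of 7 BPN/3J vehicle libraries, where it averaged 0.0303 ± 0.0517 CPM (0 to 0.141, median 0). BPH/2J vehicle libraries had 0.311 ± 0.177 CPM (0.0994 to 0.587, median 0.283). With Cmpd17b the BPN/3J values were 0, 0.0347, 0.0913, 0.0513 and 0 CPM, and the BPH/2J values ran from 0.172 to 0.461 (median 0.295).

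Over whole groups these are 6 Ncr1 reads in BPN/3J vehicle, 6 in BPN/3J Cmpd17b, 82 in BPH/2J vehicle and 60 in BPH/2J Cmpd17b. Under vehicle 6 of 7 BPH/2J libraries lay above every BPN/3J library, and under Cmpd17b 6 of 6 did. The log2 strain difference was 3.34 ± 0.66 under vehicle and 2.93 ± 0.74 under Cmpd17b. The size rests on few reads: without BPN/3J vehicle replicate 4, which holds the 0.141 CPM, the vehicle difference was 4.51, and without BPN/3J Cmpd17b replicate 3 the other was 3.55.

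Nkg7, a membrane protein of cytotoxic granules in NK and CD8 T cells, did not share this pattern. It was at 0.157 ± 0.077 CPM in BPN/3J vehicle (0.0629 to 0.260, median 0.164) and 0.305 ± 0.137 in BPH/2J vehicle (0.182 to 0.562, median 0.236). With Cmpd17b it was at 0.189, 0.104, 0.152, 0.359 and 0.318 CPM in BPN/3J and 0 to 0.445 (median 0.144) in BPH/2J. The groups overlapped under both treatments, with log2 strain differences of 0.93 (-0.07 to 1.93) under vehicle and -0.30 (-1.43 to 0.84) under Cmpd17b.

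Cd4 is the co-receptor of helper T cells and lies on chromosome 6. It was lower in BPH/2J, the opposite direction to Gzma. BPN/3J vehicle libraries had 1.21 ± 0.47 CPM (0.626 to 1.73, median 1.15) and BPH/2J vehicle libraries 0.501 ± 0.197 (0.303 to 0.895, median 0.464). With Cmpd17b the values were 1.51, 1.49, 1.10, 0.794 and 1.30 CPM in BPN/3J and 0.326 to 0.925 (median 0.579) in BPH/2J. Most BPN/3J libraries stood above all BPH/2J libraries, 5 of 7 under vehicle and 4 of 5 under Cmpd17b, but the ranges overlapped. The log2 difference was -1.27 ± 0.27 under vehicle (-1.33 in batch 1, -1.08 in batch 2) and -0.99 ± 0.30 under Cmpd17b.

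Cd3e, a signalling chain of the T cell receptor complex found on all T cells, did not follow Cd4. It was at 0.259 ± 0.088 CPM in BPN/3J vehicle (0.105 to 0.361, median 0.260) and 0.309 ± 0.228 in BPH/2J vehicle (0.101 to 0.735, median 0.281). BPN/3J mice given Cmpd17b had 0.405, 0.312, 0.183, 0.436 and 0.0577 CPM, and BPH/2J mice 0.257 to 0.651 (median 0.381). The groups overlapped, and the log2 strain difference was 0.20 (-0.64 to 1.04) under vehicle and 0.63 (-0.29 to 1.56) under Cmpd17b.

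Across the 9 genes, the strains did not overlap for Il15 and Gzma under vehicle, and for Il15, Gzma and Ncr1 under Cmpd17b. Of all genes tested, 6.36% did not overlap under vehicle (3.4% higher and 2.96% lower in BPH/2J) and 12.6% under Cmpd17b (6.09% higher and 6.5% lower), where the groups are smaller. Since the genes were chosen with these differences known, nothing is read from the count.

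**Figure D2:**
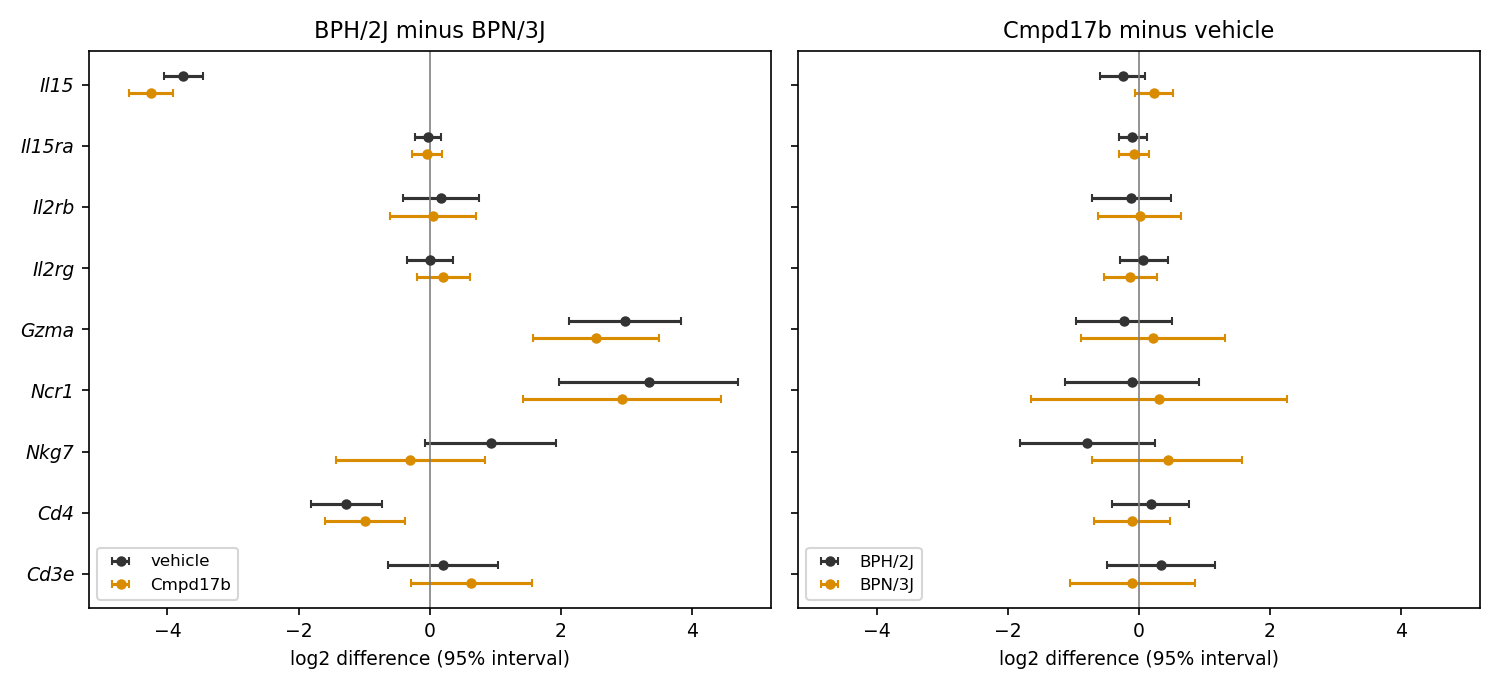
Fitted log2 difference with its 95% interval (x axis) for each gene (y axis). The left panel gives BPH/2J minus BPN/3J under vehicle and under Cmpd17b, with Il15 at -3.76 and -4.25, and the right panel gives Cmpd17b minus vehicle in each strain, where every interval includes 0.

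Cmpd17b was compared with vehicle within each strain, a contrast on which the genes had not been chosen. None of the 9 genes was called in BPH/2J (adjusted p of 1 for each) or in BPN/3J (adjusted p from 0.56 to 0.99, edgeR). Of all genes tested, 0% were called in either strain, with 287 and 1506 genes at an unadjusted p under 0.05. None of the 9 genes was below that level in either strain, by edgeR or by DESeq2. DESeq2 called 0 genes in BPH/2J and 1 in BPN/3J, which is not one of the 9.

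The precision of these comparisons differed between genes. For Il15 the log2 change was -0.25 (-0.60 to 0.09) in BPH/2J and 0.23 (-0.06 to 0.52) in BPN/3J. Il15ra changed by -0.10 (-0.31 to 0.12) and -0.08 (-0.31 to 0.15), and Il2rg by 0.07 (-0.29 to 0.44) and -0.13 (-0.53 to 0.27). The lymphocyte genes had wider intervals, such as -0.22 (-0.96 to 0.51) and 0.21 (-0.89 to 1.32) for Gzma, 0.18 (-0.41 to 0.76) and -0.10 (-0.68 to 0.48) for Cd4, and -0.11 (-1.13 to 0.91) and 0.30 (-1.65 to 2.26) for Ncr1. A change of 1 log2 unit is outside the intervals of Il15, Il15ra, Il2rb, Il2rg and Cd4 in both strains. It is inside both intervals of Ncr1, Nkg7 and Cd3e.

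Nkg7 had log2 changes of -0.79 (-1.81 to 0.24) in BPH/2J and 0.44 (-0.71 to 1.58) in BPN/3J. Il2rb had -0.12 (-0.72 to 0.49) and 0.01 (-0.62 to 0.64), and Cd3e 0.34 (-0.49 to 1.16) and -0.10 (-1.05 to 0.85). Treated and untreated groups overlapped for all 9 genes in both strains, against 0.0772% and 0.341% of all genes without overlap in BPH/2J and BPN/3J.

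The difference between the drug's effects in the strains was tested as an interaction, and none of the 9 genes was called (0% of all genes, 595 at an unadjusted p under 0.05, and 0 called by DESeq2). Il15 alone had an unadjusted p under 0.05, with a log2 difference of -0.48 ± 0.22 (adjusted p = 0.917 by edgeR). It was -0.37 without BPN/3J vehicle replicate 7. Nkg7 had the estimate farthest from 0, -1.22 ± 0.74 (adjusted p = 0.917 by edgeR), and Ncr1 the widest interval, -2.62 to 1.80.

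The other genes of the pathway were taken from lists, here without the 9 members, and these were tested between strains. The lists were chosen with earlier results of these data known, so their calls are a description and not independent support. Of all genes tested, 18.9% were called under vehicle (9.16% higher and 9.73% lower in BPH/2J) and 14.1% under Cmpd17b (7.48% higher and 6.65% lower). Among the other common gamma chain cytokines and Tslp, Il9 and Il21 had no read in the 25 libraries, and Il2 and Il4 had at most 2 reads in any group. The remaining 2 genes, Il7 and Tslp, passed the filter and 0 were called by edgeR or DESeq2, with 0 at an unadjusted p under 0.05. Il7, a growth factor for T cells and innate lymphoid cells, was at 0.332 ± 0.184 CPM in BPN/3J vehicle and 0.335 ± 0.170 in BPH/2J vehicle.

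Of 5 further receptor genes tested, 1 was lower in BPH/2J under vehicle, and 1 was lower and 1 higher under Cmpd17b. The one lower under both was Il2ra, the alpha chain of the high-affinity IL-2 receptor, which fell from 1.28 ± 0.30 CPM (0.736 to 1.66) to 0.241 ± 0.128 (0.121 to 0.505) under vehicle, without overlap. Its log2 difference was -2.42 ± 0.32 (adjusted p = 1.61e-06, edgeR) under vehicle and -1.48 ± 0.35 (adjusted p = 0.00335) under Cmpd17b. In batch 2 alone it was -1.5 (adjusted p = 0.223). Il2ra was thus lower in BPH/2J together with Il15 and Cd4, while Il2rb and Il2rg, which complete its receptor, overlapped between strains.

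The receptor gene higher in BPH/2J under Cmpd17b was Crlf2, a chain of the TSLP receptor, at 3.16 ± 0.93 CPM against 1.69 ± 0.23 (log2 difference 0.78 ± 0.22, adjusted p = 0.0136, edgeR). Under vehicle it was at 2.91 ± 0.94 and 2.84 ± 1.05 CPM. With 26 libraries the Cmpd17b call was lost (adjusted p = 0.069, edgeR).

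Of 13 genes of JAK-STAT and downstream signalling, 3 were higher and 1 lower in BPH/2J under vehicle, and 0 were higher and 1 lower under Cmpd17b. The list's median log2 difference was 0.10 under vehicle against -0.001 for all genes. The 3 higher genes were Stat3 (0.34 ± 0.09, adjusted p = 0.00704), Pik3r1 (0.43 ± 0.13, 0.0165) and Stat5a (0.29 ± 0.10, 0.0386), with adjusted p from edgeR. Stat5a encodes one of the pair of STAT5 proteins that IL-15 activates, and its call was lost in 13 of 24 alternatives. Mtor, a kinase that integrates growth signals, was lower under vehicle (-0.43 ± 0.08, adjusted p = 0.000165) and under Cmpd17b (-0.45 ± 0.09, adjusted p = 0.000587). With the kidney-like library kept in the fit, the vehicle calls of Mtor (adjusted p = 0.398), Stat3 (0.194) and Pik3r1 (0.145) were lost, as they were in batch 2 alone. The Cmpd17b difference of Mtor was then -0.06 (adjusted p = 0.938, edgeR).

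Of 11 genes known as targets or feedback regulators of IL-15 signalling, 2 were higher in BPH/2J under each treatment and 0 were lower. Socs2, a STAT5 target that damps cytokine and growth hormone signalling, was at 33.8 ± 3.2 CPM in BPN/3J vehicle and 52.3 ± 9.1 in BPH/2J vehicle, without overlap (log2 difference 0.63 ± 0.11, adjusted p = 7.04e-05, edgeR). Under Cmpd17b its difference was 0.72 ± 0.12 (adjusted p = 0.000101). With 26 libraries both calls were lost (adjusted p = 0.122 and 0.252). Bcl2, a survival factor, differed by 0.41 ± 0.14 (adjusted p = 0.037) under vehicle, a call lost in 12 of 24 alternatives, and by 0.66 ± 0.16 (adjusted p = 0.00469) under Cmpd17b. Cish, a further STAT5 target, was at 58.5 ± 20.7 and 83.1 ± 19.8 CPM under vehicle and was not called by edgeR. The called share of this list, 18.2% under each treatment, is near the 18.9% and 14.1% of all genes.

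**Figure D3:**
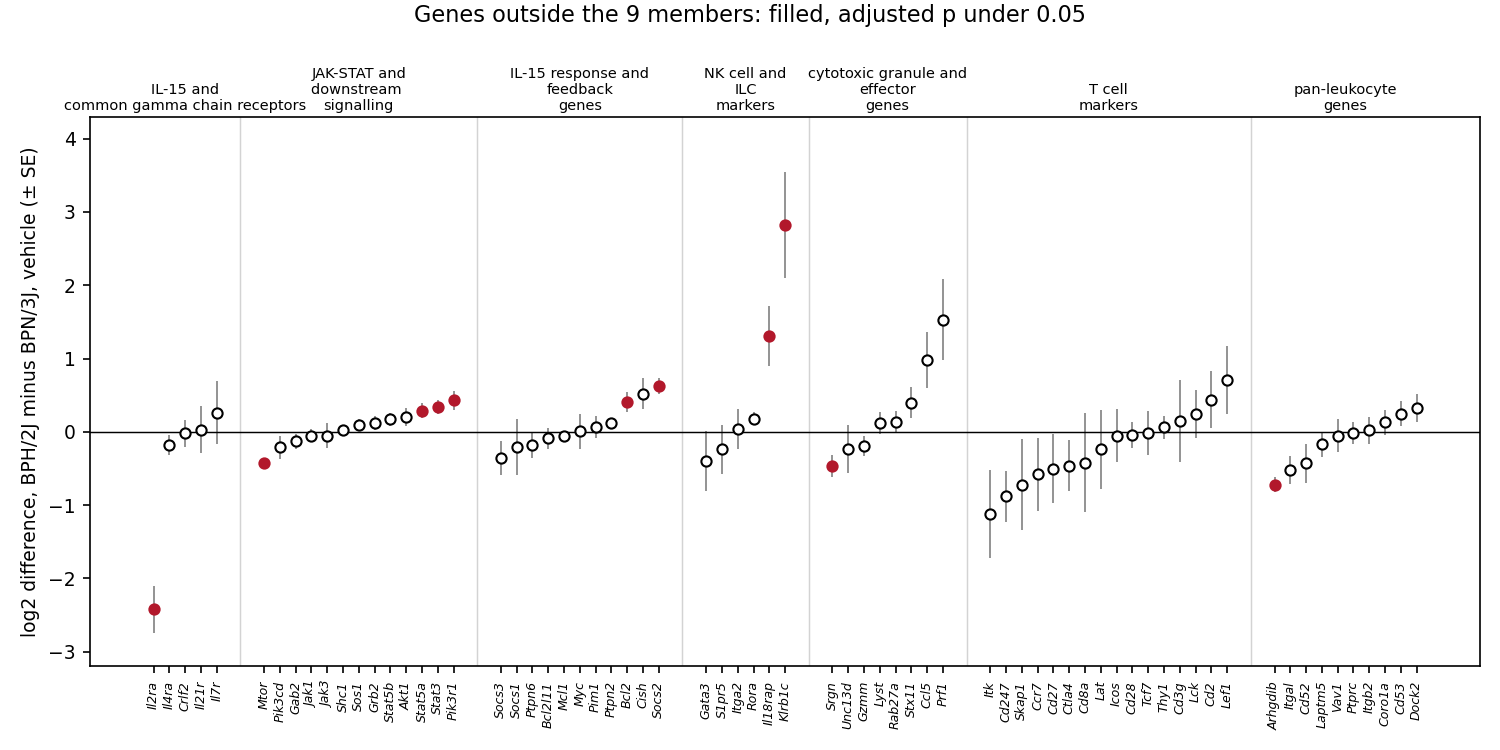
Log2 difference between strains under vehicle (y axis, BPH/2J minus BPN/3J, bars are SE) for each tested gene of 7 lists, without the 9 members (x axis, ordered by value within a list). Filled points have an adjusted p under 0.05: Il2ra at -2.42 and Klrb1c at 2.82 lie farthest from 0, and no gene of the T cell list is filled. Klrb1c passed the filter through the BPH/2J libraries, where it is high, and nothing is read from its call. Il2ra and Il18rap may have passed through the strain where each is high, and nothing is read from their calls.

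Among NK cell and innate lymphoid cell markers other than Ncr1, 21 were in the table and 6 passed the filter. Klrb1c was among the 6 through the BPH/2J libraries: its highest values in BPN/3J, 0.189 CPM with vehicle and 0.103 with Cmpd17b, are under the filter's 0.287. As it passed through the groups where it is high, nothing is read from its call or from the list's count. Of these 6, 2 were higher in BPH/2J under vehicle and 1 under Cmpd17b, and 0 were lower. Klrb1c, which encodes the NK1.1 antigen in strains that carry it, was at 0.0423 ± 0.0702 CPM in BPN/3J vehicle (no read in 4 of 7 libraries) and 0.310 ± 0.248 in BPH/2J vehicle. As a description, the log2 difference was 2.82 ± 0.72 under vehicle and 3.32 ± 0.86 under Cmpd17b, where the groups did not overlap. The sizes rest on few reads and rose to 3.98 without BPN/3J vehicle replicate 7 and 4.84 without BPN/3J Cmpd17b replicate 4.

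Il18rap, a chain of the IL-18 receptor found on NK and T cells, was at 0.217 ± 0.094 CPM in BPN/3J vehicle and 0.541 ± 0.241 in BPH/2J vehicle (log2 difference 1.31 ± 0.41, adjusted p = 0.0227, edgeR). That call was lost in 6 of 23 alternatives.

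Several further NK genes stayed under the filter and were not tested. Klrd1 (CD94) was at 0.0425 ± 0.0535 CPM in BPN/3J vehicle and 0.187 ± 0.108 in BPH/2J vehicle. Eomes, a T-box factor of NK cells, was at 0.0222 ± 0.0244 and 0.118 ± 0.092 CPM, and Tbx21 (T-bet) at 0.0624 ± 0.0559 and 0.139 ± 0.059 CPM. Klrk1 (NKG2D) was at 0.182 ± 0.129 and 0.135 ± 0.085 CPM in the same groups. These values rest on 5 to 44 reads per group. Other genes of the list also had lower means in BPH/2J vehicle than in BPN/3J vehicle. They were Xcl1 (0.0216 and 0.0471 CPM), Klri2 (0.0168 and 0.0425), Il12rb2 (0.0924 and 0.125), Txk (0.094 and 0.106), S1pr5 (0.778 and 0.898) and Gata3 (0.325 and 0.441). Klrc1, Klre1, Klrg1, Klra4, Klra7, Klra8, Sh2d1b1 and Itga2 had higher means in BPH/2J vehicle. Unlike the others named here, S1pr5, Gata3 and Itga2 passed the filter and were tested, and edgeR called them under neither treatment.

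The summed level of the 22 NK and innate lymphoid markers in the table, Ncr1 included, ran from 17.0 to 24.2 CPM in BPN/3J vehicle and 21.8 to 26.3 in BPH/2J vehicle. With Cmpd17b it ran from 17.3 to 25.3 in BPN/3J and 22.8 to 28.1 in BPH/2J. The sums overlap between strains under both treatments. Most of each sum is 1 gene, the nuclear receptor gene Rora, whose mean was 17.6 CPM in BPN/3J vehicle and 20.0 in BPH/2J vehicle, of mean sums of 20.5 and 24.1.

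Among 8 further cytotoxic granule and effector genes tested, 0 were higher and 1 was lower in BPH/2J under vehicle, and 1 was higher and 0 lower under Cmpd17b. Prf1 encodes perforin, which opens the target cell's membrane to granzymes. It was at 0.139 ± 0.178 CPM in BPN/3J vehicle and 0.390 ± 0.154 in BPH/2J vehicle (log2 difference 1.53 ± 0.55, adjusted p = 0.0502, edgeR), and at 0.0608 ± 0.0503 and 0.268 ± 0.173 CPM under Cmpd17b (2.16 ± 0.70, adjusted p = 0.0375). The Cmpd17b call was lost in 11 of 18 alternatives. Both BPN/3J means of Prf1 are under the filter's 0.287 CPM, and that of BPH/2J vehicle is above it. As Prf1 may have passed through the groups where it is high, nothing is read from its call. Srgn, the proteoglycan core of secretory granules in many blood cells, was lower in BPH/2J under vehicle (-0.46 ± 0.15, adjusted p = 0.0284), and without BPN/3J vehicle replicate 7 it was -0.25 (adjusted p = 0.062). Its call was lost in 10 of 24 alternatives, among them with 26 libraries (0.178), in batch 1 alone (0.0927), and without BPH/2J vehicle replicate 4, 5 or 6 or BPN/3J vehicle replicate 1 (0.0502 to 0.0633). Gzmb stayed under the filter, at 0.0907 ± 0.0570 CPM in BPN/3J vehicle and 0.144 ± 0.061 in BPH/2J vehicle.

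Of 16 further T cell markers tested, 0 were called between strains under either treatment by edgeR or DESeq2, with 1 at an unadjusted p under 0.05 under vehicle and 0 under Cmpd17b. The list's median log2 difference was -0.15 under vehicle and -0.06 under Cmpd17b. Lck, the kinase that starts T cell receptor signalling, was at 0.472 ± 0.268 CPM in BPN/3J vehicle and 0.567 ± 0.189 in BPH/2J vehicle. Cd3g was at 0.217 ± 0.171 and 0.244 ± 0.147 CPM in these groups, and Cd8a at 0.145 ± 0.168 and 0.109 ± 0.065. The lower Cd4 in BPH/2J was therefore not accompanied by a called change among these 16 markers. Il2ra, counted above with the receptor genes and not in this list, was called lower in BPH/2J, and nothing is read from that call.

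Cd4 is also carried by some macrophages and dendritic cells. In BPH/2J under vehicle, 18 such markers gave 2 higher and 1 lower, and under Cmpd17b 0 higher and 2 lower. Cd74, the invariant chain of MHC class II, was lower under vehicle, at 28.4 ± 12.6 CPM against 64.8 ± 18.9 (log2 difference -1.18 ± 0.33, adjusted p = 0.0131, edgeR). Lyz2 (0.49 ± 0.15, adjusted p = 0.0229) and Mrc1 (0.32 ± 0.10, adjusted p = 0.0253), both macrophage genes, were higher. Each of these 2 calls was lost in 6 of 24 alternatives, with 26 libraries (adjusted p = 0.506 and 0.761, edgeR) and in batch 2 alone among them. That of Lyz2 was lost without BPH/2J vehicle replicate 3 or 6 or BPN/3J vehicle replicate 6 or 7 (adjusted p of 0.0524 to 0.0625), and that of Mrc1 without BPH/2J vehicle replicate 6 or BPN/3J vehicle replicate 2 or 6 (0.0547 to 0.0788). The 2 genes lower under Cmpd17b were Cd163 (log2 difference -0.51) and Timd4 (-0.94). Their calls were lost in 5 and 3 of 20 alternatives, with 26 libraries among them (adjusted p = 0.458 and 0.117, edgeR). The part of macrophages and dendritic cells in the Cd4 level was not tested.

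The pan-leukocyte genes gave 1 lower of 10 under each treatment. This was Arhgdib, a gene of blood cells, at 18.0 ± 3.9 CPM in BPN/3J vehicle and 10.9 ± 1.1 in BPH/2J vehicle (log2 difference -0.72 ± 0.10, adjusted p = 3.94e-06, edgeR). In batch 2 alone its call was lost (adjusted p = 0.114). Ptprc (CD45), found on nearly all leukocytes, was at 5.36 ± 0.85 CPM in BPN/3J vehicle and 5.32 ± 0.65 in BPH/2J vehicle. B cell markers (7 tested) and neutrophil markers (5 tested) gave 0 calls by edgeR or DESeq2 under either treatment, with 0 and 1 at an unadjusted p under 0.05 in edgeR under vehicle and 1 and 0 under Cmpd17b. The summed pan-leukocyte level ran from 46.2 to 71.0 CPM in BPN/3J vehicle and 39.2 to 56.2 in BPH/2J vehicle.

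Under vehicle and Cmpd17b the median log2 strain differences of these lists were -0.02 and 0.17 for the receptors, 0.01 and 0.12 for the response genes, 0.11 and 0.37 for the NK markers, 0.13 and 0.13 for the cytotoxic genes, -0.05 and 0.17 for the macrophage markers and -0.03 and 0.21 for the pan-leukocyte genes. They were 0.56 and 0.63 for the neutrophil markers and -0.37 and -0.39 for the B cell markers. For all genes tested they were -0.001 and 0.009.

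Markers of other tissue in the sample were counted in the same way. Under vehicle, 1 of 8 ventricular cardiomyocyte markers was lower in BPH/2J and 0 were higher, 1 of 7 kidney tubule markers was lower, 1 of 2 atrial markers was higher and 3 of 6 hepatocyte and erythroid markers were lower. Under Cmpd17b these were 0 of 8 by edgeR and by DESeq2 (0 and 1 at an unadjusted p under 0.05), 1 of 7 lower, 1 of 2 higher and 0 of 6 by both tools (0 and 0 at that level). The atrial call under vehicle was Myl4 (log2 difference 2.39). It was lost in 6 of 24 alternatives, and the difference fell as low as 1.01 with a single library left out. Myl7, a further atrial marker, was at 72.8 CPM in BPH/2J vehicle replicate 7 and at most 1.435 in the other libraries. In batch 1 alone 0 of 5 hepatocyte and erythroid markers were called under vehicle (edgeR, 2 at an unadjusted p under 0.05). Alb, the main secreted protein of hepatocytes, was at 219 and 340 CPM in BPN/3J vehicle replicates 1 and 2, both of batch 2, and at 0 to 34.7 in the other BPN/3J vehicle libraries. The part of these markers in the levels of the 9 genes was not tested. None of the 124 list genes was called for Cmpd17b in either strain by edgeR or DESeq2, with 3 in BPH/2J and 7 in BPN/3J at an unadjusted p under 0.05 in edgeR and 4 and 6 in DESeq2.

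The genes next to Il15, Gzma, Ncr1 and Cd4 were examined in the gene order of RefSeq, 3 tested genes on each side, since strains that differ at a locus may differ over a stretch of chromosome. Around Il15 the log2 strain differences under vehicle ran from -0.41 (Tbc1d9, adjusted p = 0.0314, edgeR) to 0.26 (Zfp330, adjusted p = 0.0175). Gab1 was called too (0.23, adjusted p = 0.0444), a call lost in 15 of 24 alternatives. The Tbc1d9 call was lost in 9 of 24 alternatives, among them without BPH/2J vehicle replicate 4, 5 or 7 or BPN/3J vehicle replicate 3, 4 or 5 (adjusted p of 0.0519 to 0.0769). That of Zfp330 was lost with 26 libraries (0.0503) and in batch 2 alone (0.672). Under Cmpd17b, Zfp330 was higher in BPH/2J without overlap (0.41, adjusted p = 0.00156, edgeR) and kept its call in all alternatives run. Tbc1d9 was lower under Cmpd17b (-0.50, adjusted p = 0.0258), a call lost in 9 of 20 alternatives. Gab1 was not called under Cmpd17b (-0.01, adjusted p = 0.953). The 3 others, Usp38, Inpp4b and Rnf150, were not called under either treatment. Il15 thus stood apart from its neighbours in size by more than 3 log2 units.

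Next to Gzma, Gpx8, which encodes a peroxidase of the endoplasmic reticulum, was higher in BPH/2J and kept its call in all alternatives run. It was at 11 ± 1.4 CPM in BPN/3J vehicle and 20.4 ± 2.2 in BPH/2J vehicle, without overlap (log2 difference 0.89 ± 0.08, adjusted p = 7.37e-10, edgeR), and the difference under Cmpd17b was 0.82 ± 0.09 (adjusted p = 5.51e-08). Dhx29, on the same side as Gpx8, was lower in BPH/2J under Cmpd17b, without overlap (-0.27, adjusted p = 0.0491, edgeR). That call was lost in 13 of 20 alternatives, and under vehicle Dhx29 was not called (-0.17, adjusted p = 0.161). On the other side, Gm34471, the third tested gene from Gzma, was lower in BPH/2J. With Cmpd17b it was at 0.324 to 0.487 CPM in BPN/3J and at 0.0251 to 0.231 in BPH/2J, where every library is under the filter's level. As Gm34471 passed the filter through the BPN/3J groups, where it is high, nothing is read from its calls. As a description, its log2 difference was -1.70 ± 0.42 under vehicle and -1.78 under Cmpd17b. Its vehicle call was lost in batch 2 alone (adjusted p = 0.464, edgeR). Esm1, the nearest tested gene on that side, was called under Cmpd17b (0.88, adjusted p = 0.0283) and not under vehicle (0.30, adjusted p = 0.428), and the difference between those was not called. The Cmpd17b call of Esm1 was lost in 6 of 20 alternatives, with 26 libraries (adjusted p = 0.103) and without BPH/2J Cmpd17b replicate 4 or 6 or BPN/3J Cmpd17b replicate 2, 3 or 4 (0.0513 to 0.0854).

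Around Ncr1, Lilra5 was called under vehicle (0.45 ± 0.16, adjusted p = 0.0432, edgeR), a call lost in 16 of 24 alternatives, and the other 5 genes were not called under either treatment. Around Cd4, Gpr162 was lower in BPH/2J under vehicle (-1.07 ± 0.27, adjusted p = 0.0048), in the direction of Cd4, and under Cmpd17b it was -0.62 (adjusted p = 0.209). The vehicle call of Gpr162 was lost with 26 libraries (adjusted p = 0.0614) and in batch 2 alone (0.615). Lag3, a T cell and NK cell inhibitory receptor that lies on the other side of Cd4, had -0.11 ± 0.50 (adjusted p = 0.914).

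**Figure D4:**
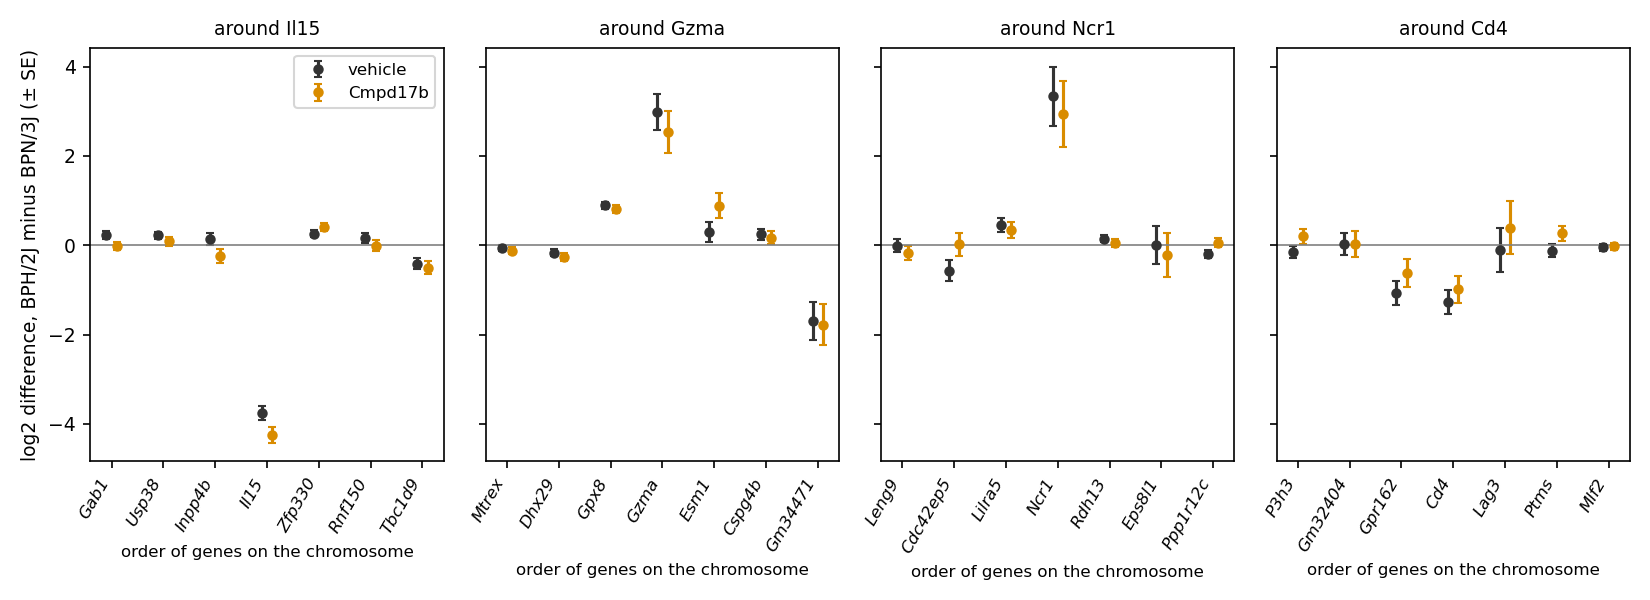
Log2 difference between strains (y axis, BPH/2J minus BPN/3J, bars are SE) for Il15, Gzma, Ncr1 and Cd4 and the 3 tested genes on each side, in chromosome order and not to scale (x axis). Il15 at -3.76 stands apart from neighbours between -0.41 and 0.26 under vehicle, whereas Gpx8 beside Gzma (0.89) and Gpr162 beside Cd4 (-1.07) differ in the direction of the member.

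The genes whose log2 CPM ran most like Il15 over the 25 libraries were Dnajc28 (Pearson r = 0.994), Zfp982 (0.988), Gm15772 (0.983), Gm40528 (0.983) and Abca4 (0.982), among 12720 genes with a mean of at least 1 CPM. All 5 share a high level in BPN/3J and a low one in BPH/2J. Dnajc28, a DnaJ-type chaperone, was at 41.7 ± 10.7 CPM in BPN/3J vehicle and 3.29 ± 1.03 in BPH/2J vehicle, and Abca4, a lipid transporter, at 39.7 ± 7.4 and 2.17 ± 0.70 CPM. These r values describe the separation of the strains, since the libraries fall into 2 clusters by strain.

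After group means and batch were removed, the genes most like Il15 were Kcnn2 (r = 0.933), Lrrc39 (0.867), Osgepl1 (0.846), Apmap (0.844) and Dnajc28 (0.844). BPN/3J vehicle replicate 7 weighs on these values, which were 0.894 for Kcnn2 and 0.713 to 0.757 for the others without it. Among the 9 genes, the residuals of Il15 had r = -0.658 with those of Il2rg and -0.466 with those of Il15ra. Without that library these were -0.425 and -0.072. Gzma and Ncr1 had r = 0.287, and 0.312 without it. The points are 25 libraries that share depth and scaling, and the values are descriptions.

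The same rule for Gzma gave Dynlt1c (r = 0.921), Fez2, Rnaset2b, Gm40466 and Tma7-ps by levels, and Leng1 (0.808), Mea1, Pagr1a, Mtx1 and Czib by residuals, over 25 libraries. For Cd4 it gave Gon4l (0.875), Myadm, Ucp2, Adgre5 and Hhatl by levels, and Kif5a (0.676), Tyw3, Lmln, Nat14 and Nol9 by residuals. None of these 20 genes is among the 9.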

How the data were processed

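Per the submitters' processing notes, Trim Galore 0.6.7 trimmed the reads of the left ventricle libraries and STAR 2.7.9a placed them on GRCm39 (mm39). How genes were counted, whether strand was used and which annotation served is not given in the sources used here. Genes that overlap or have near-identical copies are uncertain for that reason. The authors deposited expected counts, 93.3% of them whole and 2.21% over 0.01 away from one, which were rounded here. Within groups, 0 of 73 pairs of libraries were identical. Each library was counted as 1 mouse, from the identifiers in the titles.

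The 9 genes and the 15 gene lists were chosen with earlier results of these data known. Groups come from the labels, and replicates are numbered in sample order. Counts were scaled by the trimmed mean of M-values and filtered by filterByExpr (minimum count 10). In R 4.3.3, edgeR 4.0.16 fitted a robust quasi-likelihood model with 1 coefficient per group plus batch to 25 libraries, which share the estimate of spread. In BPN/3J Cmpd17b, which has batch 1 alone, the batch effect comes from the other groups. Each SE was derived from the log2 difference and its F, with 95% intervals.

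Genes named are the 9 members, up to 4 called genes per list and contrast with the smallest p, 3 tested genes on each side of Il15, Gzma, Ncr1 and Cd4, and the 5 genes with the highest r by levels and by residuals for Il15, Gzma and Cd4. The text names part of these, and further list genes that were not called, chosen with their values seen. The alternatives were the full 26 libraries, RLE size factors, DESeq2 1.42.0, no filter, a minimum of 1 CPM in 5 libraries, no batch term, batch 1 or batch 2 alone, a fit of the compared groups only, and single libraries left out in turn. A set of 23 libraries, without BPN/3J vehicle replicate 7 and BPH/2J Cmpd17b replicate 6 as well, and correlations without the former were added after seeing the data. RefSeq tables of GRCm38.p6 served for gene order and promoters, and GENCODE exon models for lengths. edgeR was tested on simulated counts for the same genes.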

Additional observations from a re-analysis of the deposited data

Results flagged for a closer look

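In 6 of 36 groups of 5 to 7 libraries, each a gene in a group, 1 library lay apart from the rest by Dixon's criterion at 95%. Chance gives about 1 in 20 such groups. BPN/3J vehicle replicate 7 accounts for 3 of them, with the lowest Il15 of its group (17.1 CPM) and the highest Il15ra (30.2 CPM) and Il2rg (16.8 CPM). BPH/2J Cmpd17b replicate 6 had the lowest Il15ra of its group (14.4 CPM). BPN/3J vehicle replicate 1 had the highest Gzma of its group (0.385 CPM), below every BPH/2J library, and BPN/3J vehicle replicate 4 the highest Ncr1 (0.141 CPM).

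The library labelled BPH/2J Cmpd17b replicate 7, left out for its kidney genes, held 6.68 CPM of Il15, above every BPH/2J vehicle library and below every BPN/3J library.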

How the results depend on the processing

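The strain differences of the 9 genes stayed within 1 SD of the libraries in 374 of 377 refits, and 3 moved further: Il2rb in batch 2 alone (0.88), Ncr1 without BPN/3J vehicle replicate 4 (4.51) and Il15 under Cmpd17b with 26 libraries (-3.96). Calls of other named genes held in 803 of 987 refits and were lost in 184, and the cause was not tested. The number of genes called between strains under vehicle was 1492 with 26 libraries and 1130 in batch 2 alone, and 2598 to 3751 when single libraries were left out. Under Cmpd17b it was 1195 with 26 libraries and 1834 to 2066 when single libraries were left out. DESeq2 called 1 gene for Cmpd17b in BPN/3J, Nrgn.

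For Cmpd17b, 48 of 660 refits of the 9 genes changed sign, all between values that were not called. With 26 libraries the BPH/2J log2 changes were 0.15 for Il15, -0.15 for Il2rg and -0.01 for Cd4, and in batch 1 alone -0.04 for Il2rg. In BPN/3J they were 0.03 (Cd4) and 0.11 (Cd3e) with no batch term, -0.13 (Il2rb) and 0.03 (Cd3e) in batch 1 alone, -0.14 (Il2rb) and 0.02 (Cd3e) with only the groups compared, and 0.06 (Il15ra) and 0.08 (Il2rg) with 23 libraries. The interaction was 0.10 for Il15ra in batch 1 alone and -0.04 for Il2rg with 23 libraries. Leaving out single libraries gave, in BPH/2J, -0.30 to 0.14 for Ncr1, 0.00 to 0.15 for Il2rg and -0.26 to 0.03 for Il2rb. In BPN/3J it gave -0.12 to 0.29 for Il2rb, -0.33 to 0.16 for Cd3e, -0.21 to 0.60 for Gzma, -0.32 to 1.51 for Ncr1, -0.25 to 0.02 for Cd4, -0.13 to 0.04 for Il15ra and -0.23 to 0.10 for Il2rg. For the interaction it gave -0.13 to 0.05 for Il15ra, -0.40 to 0.03 for Il2rb, -1.61 to 0.21 for Ncr1 and -0.02 to 0.30 for Il2rg.

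Depth limits Ncr1, Nkg7, Gzma and Cd3e most, with few reads per library. No paired analysis was possible because the labels give no replicate numbers that groups share.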
